A study of Canis lupus familiaris with 29 samples.

Results

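Cells make cholesterol, take it up from lipoproteins, store it as esters and export it, and 36 genes for these steps were chosen by name and read from the count table of a study of canine pheochromocytomas and paragangliomas (PPGLs), tumors of the chromaffin cells. Of these names, 34 were found, on 35 of the 30951 gene rows. IDI1 and EBP were not found by name, and MSMO1 was on 2 rows. RNA was sequenced from 19 PPGLs and 10 normal adrenal medullas (NAMs), each from a different dog. The NAMs came from healthy dogs kept for research, and the tumors from client-owned dogs with samples taken at several institutions, so that the origin of the dogs cannot be told apart from the tissue. The authors had divided the tumors into group 1, with 7 dogs, and group 2, with 12, by the principal components of these same samples, so that a p between the groups describes the split they drew. No treatment, age or genotype was given in the labels.

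Levels are given as CPM, counts scaled to a common library size after TMM normalization. The NAM libraries held 19258054 to 35918182 counts each, and the PPGL libraries 18208718 to 31919833. At these depths, before TMM scaling, 3 counts are worth 0.0835 to 0.165 CPM, which covers counting error only.

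Cholesterol is built from acetyl-CoA through mevalonate, farnesyl diphosphate and squalene, the first sterol being lanosterol. SREBP transcription factors, carried by SCAP and held back by INSIG1 when sterols are plentiful, switch on the genes of this pathway. Steroid-producing cells of the adrenal cortex take cholesteryl esters from lipoproteins through the receptor SCARB1 and store them as droplets made by SOAT1, whereas chromaffin cells make catecholamines and are not known for such stores.

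Since cortical cells use many of these genes, markers of both tissues were read first. Of 11 cortical markers 9 were found by name, as CYP11B1 and CYP11B2 were not, and none of the 9 was at 0 in a NAM. In NAMs their summed level was 13259 to 63858 CPM, and CYP17A1, which makes glucocorticoid and androgen precursors, had 3093 to 20341 CPM. Their sum was 34.5 to 1148 CPM in group 1 and 216 to 32063 CPM in group 2. Of these markers, STAR alone had 1130 CPM in group 1 replicate 1, the tumor with the highest sum of that group. The cortical score, the mean log2 CPM of these markers, was 9.25 to 11.4 in NAMs, -0.811 to 3.91 in group 1 and 3.18 to 10.2 in group 2, where replicate 10 was highest. Every library labelled as medulla thus held RNA of cortical genes, and the tumors of group 1 held less than any NAM. MC2R and MRAP were each at 0 in 4 samples, HSD3B2 in 1 and CYP11A1 in 2, all in group 1. The 9 chromaffin markers summed to 16476 to 93279 CPM among NAMs, and among PPGLs they ran 7332 to 119000.0 CPM; the most abundant on average was CHGB. In group 1 replicates 3 and 5, TH was at 10.5 and 2.15 CPM and DDC at 0.280 and 0.359 CPM, each under 0.1 times the lowest NAM, although DBH was at 2512 and 2172 CPM. Other tumors also had chromaffin markers under 0.1 times the lowest NAM. Group 1 replicate 7, with the lowest chromaffin sum, had CHGB at 26.6 CPM and PNMT at 11.4 CPM, and group 2 replicate 7 had TH at 31.98 CPM. Counts of members are also given without group 1 replicates 3 and 5, which were low in both TH and DDC, a choice made after their values were seen. Without group 1 replicate 7, 6 rows were higher and 12 lower in group 1 than in NAMs, with 33.4% of all genes called. Without group 2 replicate 7, 4 were higher and 15 lower in group 2 than in NAMs, with 31.6% of all genes.

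Of the 35 rows, all of which passed the low-count filter, 17 were lower and 5 higher in PPGLs than in NAMs, where 15.2% and 22.3% of the 14766 genes tested were lower and higher. The median log2 FC of the rows was -0.27, beside 0.13 over all genes. Against NAMs, 13 rows were lower and 6 higher in group 1 (14.1% and 21.0% of 15201 genes), with a median of -0.41 beside 0.13 over all genes. In group 2, 15 were lower and 4 higher (14.5% and 18.4%), with a median of -0.36 beside 0.09. Both comparisons share the 10 NAMs and 1 fit. Of the 17 lower rows in PPGLs 4 were synthesis enzymes, and of the 5 higher rows 3 were. Without group 1 replicates 3 and 5, 16 rows were lower and 5 higher in PPGLs, and 12 lower and 4 higher in group 1. When the cortical score entered the fit, these counts dropped to 9 and 3 in PPGLs, 5 and 1 in group 2, and 0 and 0 in group 1 by edgeR, where 4 rows were lower and 6 higher at an unadjusted p under 0.05. No other tool was run with this covariate. Calls over all genes were fewer too, at 15.9% of genes in PPGLs, 8.28% in group 2 and 0.132% in group 1. All tumors but group 2 replicate 10 had a score below every NAM, and between the tumor groups the scores crossed only at group 1 replicate 6 and group 2 replicate 7. The score and the group can therefore hardly be told apart in PPGLs, in group 2 and between the tumor groups, and not at all in group 1 against NAM.

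With that score in the fit, the calls of MVD, NSDHL, SC5D, INSIG1, NPC1, STARD3, STARD4, NR1H3, APOE and APOC1 in PPGLs were lost. In group 2 those of MVK, MVD, SQLE, TM7SF2, SC5D, SCAP, INSIG1, SCARB1, NPC1, NPC2, STARD4, NR1H3 and APOC1 were lost. Of these lost calls, the fold moved by over 1.5 times for NPC1, NR1H3, APOE and APOC1 in PPGLs. In group 2 it did so for INSIG1, SCARB1, STARD4 and APOC1. A lost call alone does not show a smaller difference. When the sample number was used as a replicate block, although equal numbers are different dogs, the calls of SC5D, NPC2, STARD3 and STARD4 in PPGLs, of INSIG1 and LPL in group 1 and of SC5D and INSIG1 in group 2 were lost. Folds that moved by over 1.5 times with the block were instead those of SCARB1 in PPGLs and of SCARB1 and APOB between the tumor groups. Without group 1 replicates 3 and 5, STARD3 was no longer called in PPGLs, nor ACAT2, LSS and LIPE in group 1. STARD4 in PPGLs was not called by the Mann-Whitney U-test. With library size only, STARD3 in PPGLs and LPL and LIPE in group 1 were not called, nor was LPL with no low-count filter.

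**Figure D1:**
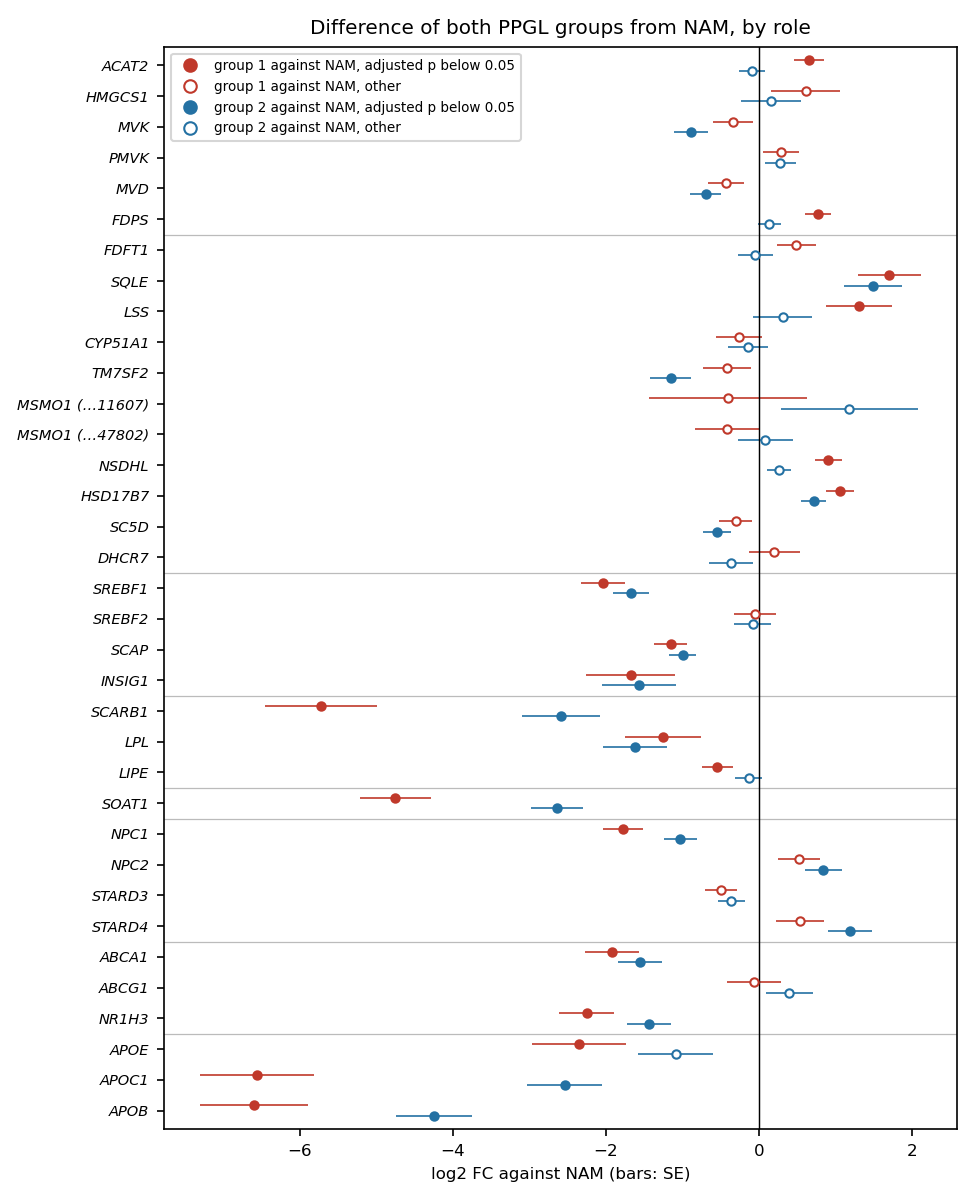
Log2 FC of each of the 35 rows against NAM on the horizontal axis, for PPGL group 1 (red) and PPGL group 2 (blue), with bars of 1 SE and gray lines between roles. Filled points have an adjusted p below 0.05; APOB, APOC1, SCARB1 and SOAT1 lie farthest to the left, with log2 FC down to -6.59 in group 1.

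SCARB1 (chromosome 26, 5049407 to 5121468 in CanFam3.1), the receptor for high-density lipoprotein, ran from a lowest of 1017 over a median of 2956 to a highest of 5114 CPM in NAMs. Its lowest, median and highest levels were 20.01, 52.6 and 91.2 CPM in group 1 and 36.9, 249 and 2482 CPM in group 2. All 7 tumors of group 1 and 11 of 12 in group 2 lay below every NAM, the exception being replicate 10, the tumor with the highest cortical score. SCARB1 was 8.87-fold lower in PPGLs (log2 FC -3.15 ± 0.59, SE, adjusted p = 0.000146), 52.8-fold lower in group 1 (log2 FC -5.72 ± 0.74, SE, adjusted p = 1.89e-06) and 5.99-fold lower in group 2 (log2 FC -2.58 ± 0.51, SE, adjusted p = 0.000377). Without group 2 replicate 10 the log2 FC was -3.82 in PPGLs and -3.27 in group 2. In the fit with 3 groups the log2 FC in PPGLs was -4.15, and with the sample number as block -3.95. With the cortical score in the fit, log2 FC were -1.50 (adjusted p = 0.0151) in PPGLs and -1.12 (adjusted p = 0.122) in group 2, and in group 1 the sign turned, at 0.57 (adjusted p = 0.876). In bulk tissue, fewer cells of a type and less RNA per cell cannot be told apart. SOAT1 (chromosome 7, 20486069 to 20546055), which esterifies cholesterol for storage, ran from a lowest of 234 over a median of 382 to a highest of 816 CPM in NAMs. Its lowest, median and highest levels were 6.56, 18.8 and 20.8 CPM in group 1 and 26.9, 50.5 and 256 CPM in group 2. The groups were ordered as for SCARB1, with 18 of 19 tumors below every NAM and group 2 replicate 10 again the highest tumor. SOAT1 was 8.67-fold lower in PPGLs (log2 FC -3.12 ± 0.40, SE, adjusted p = 1.44e-06), 26.9-fold in group 1 (log2 FC -4.75 ± 0.46, SE, adjusted p = 6.23e-08) and 6.24-fold in group 2 (log2 FC -2.64 ± 0.33, SE, adjusted p = 2.59e-06). After adjustment for the score these were -1.71 (adjusted p = 0.000357) in PPGLs, -1.51 (adjusted p = 0.359) in group 1 and -1.68 (adjusted p = 0.00294) in group 2.

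The lipases of this list act on triglyceride and on stored esters. LPL, which frees fatty acids from lipoproteins at the vessel wall, was at 29.8 to 73.7 CPM in NAMs, 3.91 to 43.00 CPM in group 1 and 1.71 to 44.9 CPM in group 2, and 15 of 19 tumors lay below every NAM (log2 FC -1.47 ± 0.37, SE, adjusted p = 0.00233). Its call in group 1 (adjusted p = 0.0481) was lost, with adjusted p up to 0.0952, without NAM replicates 2, 3, 4, 5, 7, 8, 9 or 10, group 1 replicates 1, 2, 3, 4 or 6 or group 2 replicates 1, 2, 7, 8, 11 or 12, each left out alone. Adjusted for the cortical score, log2 FC of LPL were -2.07 (adjusted p = 0.00707) in PPGLs, -4.37 (adjusted p = 0.178) in group 1 and -2.63 (adjusted p = 0.00729) in group 2. LIPE, the hormone-sensitive lipase that also hydrolyzes cholesteryl esters, had a log2 FC of -0.27 ± 0.17 (SE) in PPGLs with an adjusted p of 0.214. It was lower in group 1 (log2 FC -0.55 ± 0.21, SE, adjusted p = 0.0389), a call lost without NAM replicates 1, 2, 6, 8 or 9 or group 1 replicates 1, 2, 3, 5 or 7 (adjusted p up to 0.0801). With the cortical score in the fit its log2 FC there turned to 0.16, not called.

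All 3 apolipoproteins were lower in PPGLs. APOB (chromosome 17, 15878244 to 15915135), the large protein of low-density lipoprotein, ran from a lowest of 39.1 over a median of 210.5 to a highest of 515 CPM in NAMs. Its lowest, median and highest levels were 1.02, 1.54 and 5.47 CPM in group 1 and 0.429, 12.2 and 29.04 CPM in group 2. Every tumor lay below every NAM, and APOB was 26.9-fold lower in PPGLs (log2 FC -4.75 ± 0.52, SE, adjusted p = 1.75e-07). The difference was 96.6-fold in group 1 (log2 FC -6.59 ± 0.71, SE, adjusted p = 2.73e-07) and 18.96-fold in group 2 (log2 FC -4.24 ± 0.49, SE, adjusted p = 1.04e-06). Adjusted for the cortical score, log2 FC of APOB were -2.94 (adjusted p = 0.000133) in PPGLs, -0.73 (adjusted p = 0.846) in group 1 and -2.40 (adjusted p = 0.0045) in group 2. APOC1 (chromosome 1, 110520198 to 110631412), a small exchangeable apolipoprotein, ran from a lowest of 293 over a median of 1408 to a highest of 2178 CPM in NAMs. Its lowest, median and highest levels were 3.54, 9.49 and 39.5 CPM in group 1 and 35.3, 133 and 661 CPM in group 2. Group 1 lay wholly below the NAMs and 10 of 12 tumors of group 2 did, with log2 FC of -6.55 ± 0.75 (SE, adjusted p = 5.42e-07) and -2.54 ± 0.49 (SE, adjusted p = 0.000323), and -3.15 ± 0.64 (SE, adjusted p = 0.000355) in all PPGLs. Without group 1 replicate 3 the log2 FC of APOC1 in group 1 was -7.17. In the fit with 3 groups the log2 FC in PPGLs were -4.55 for APOC1 and -5.42 for APOB. Adjusted for the score, APOC1 had log2 FC of -0.93 (adjusted p = 0.222) in PPGLs, -2.26 (adjusted p = 0.472) in group 1 and -1.25 (adjusted p = 0.185) in group 2. APOE, which macrophages, cortical cells and hepatocytes secrete, was at 533 to 2802 CPM in NAMs, 7.49 to 572 CPM in group 1 and 223 to 2341 CPM in group 2. Its highest tumors were group 2 replicates 11 and 9, at 2341 and 1418 CPM. These overlapped the NAMs, as did group 1 replicate 3 and group 2 replicates 2, 4 and 5, and 13 of 19 tumors lay below every NAM. It was lower in PPGLs (log2 FC -1.44 ± 0.46, SE, adjusted p = 0.0149) and in group 1 (log2 FC -2.35 ± 0.62, SE, adjusted p = 0.00381), while in group 2 the log2 FC was -1.09 ± 0.49 (SE) with an adjusted p of 0.0856. Adjusted for the score, its log2 FC was -0.82 (adjusted p = 0.466) in PPGLs and -3.60 (adjusted p = 0.315) in group 1.

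**Figure D2:**
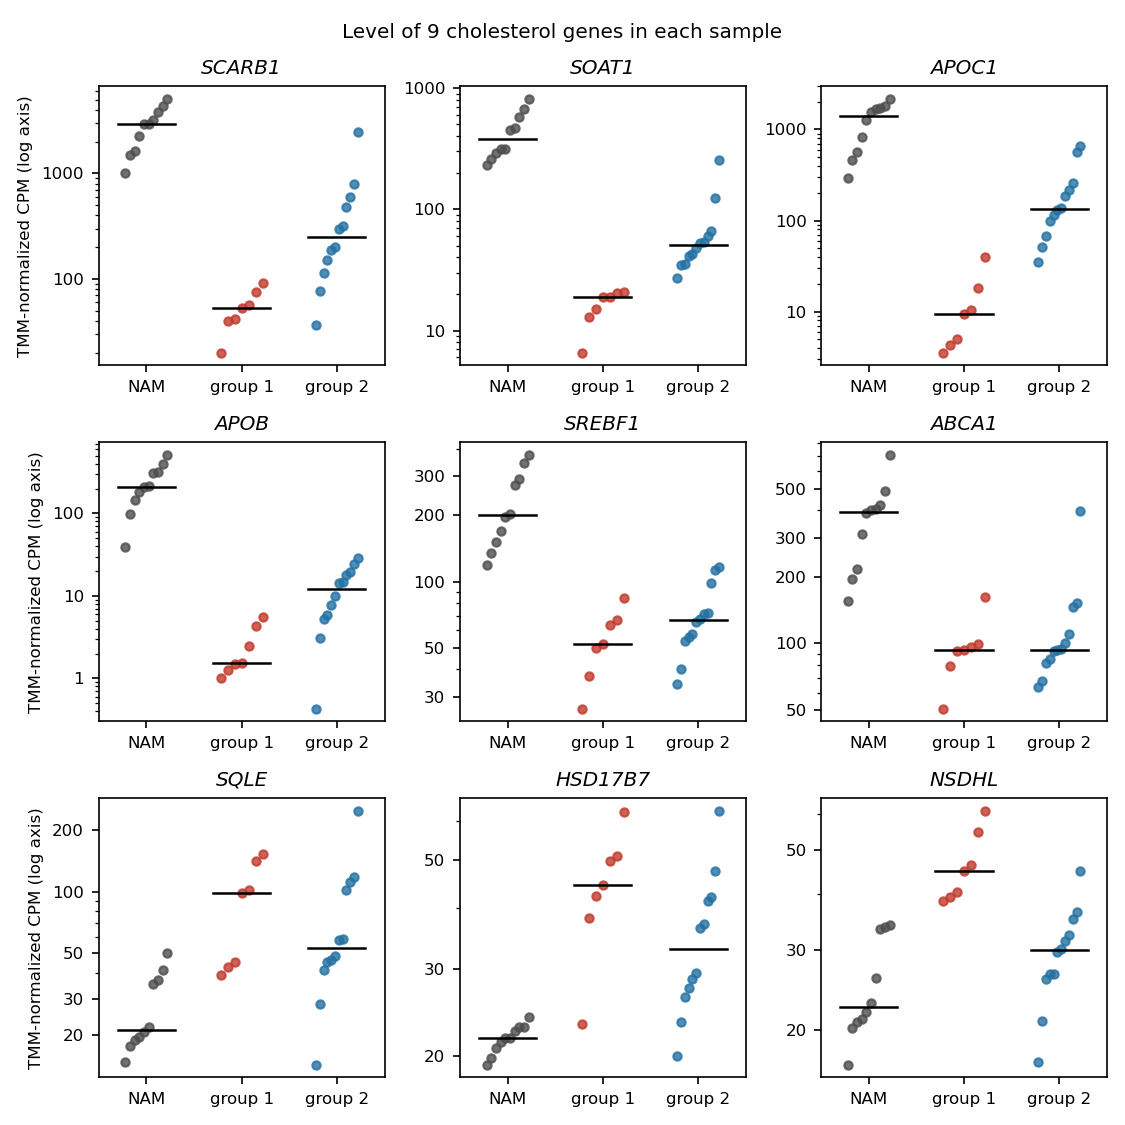
Level of 9 genes in each sample, as TMM-normalized CPM on a log axis, for NAM (gray), PPGL group 1 (red) and PPGL group 2 (blue). Each point is 1 sample, sorted by level within its group, and lines are medians; APOB and SREBF1 do not overlap between tumors and NAMs.

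Per kilobase of exon, APOC1, APOE, SCARB1 and SOAT1 had the highest mean levels of the 35 rows in NAMs, at 1674 ± 887, 1135 ± 555, 751 ± 343 and 225 ± 100.2 CPM per kb (SD, n = 10). In group 1 APOE was first, at 219 ± 171 CPM per kb (SD, n = 7). It was followed there by the synthesis enzymes PMVK and FDPS at 99.3 ± 49.5 and 90.8 ± 22.8 CPM per kb (SD, n = 7). PMVK and FDPS differed by less than their spread, and APOE exceeded both by less than its own SD. In group 1 replicates 2 and 5 APOE was at 7.49 and 31.5 CPM.

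Genes that move sterols within the cell went both ways. NPC1, the membrane protein that passes cholesterol out of lysosomes, was at 138 to 335 CPM in NAMs, 37.2 to 86.8 CPM in group 1 and 61.8 to 252 CPM in group 2, with 18 of 19 tumors below every NAM (log2 FC -1.26 ± 0.22, SE, adjusted p = 5.77e-05). After adjustment for the score, its log2 FC was -0.63 (adjusted p = 0.107) in PPGLs and -0.79 (adjusted p = 0.643) in group 1. NPC2, its soluble partner, had a lowest, median and highest level of 46.2, 55.7 and 81.5 CPM in NAMs, 34.8, 63.9 and 205 CPM in group 1 and 56.6, 92.9 and 163 CPM in group 2. The groups overlapped, although 7 of 12 tumors of group 2 lay above every NAM, and NPC2 was higher in PPGLs (log2 FC 0.73 ± 0.22, SE, adjusted p = 0.011) and in group 2 (log2 FC 0.84 ± 0.24, SE, adjusted p = 0.00846). STARD4, a cytosolic sterol carrier, had a lowest, median and highest level of 13.2, 16.6 and 23.4 CPM in NAMs, 11.7, 16.1 and 55.4 CPM in group 1 and 13.9, 36.3 and 85.7 CPM in group 2. Of the tumors, 3 of 7 in group 1 and 9 of 12 in group 2 lay above every NAM, and STARD4 was higher in PPGLs (log2 FC 0.98 ± 0.28, SE, adjusted p = 0.00617) and in group 2 (log2 FC 1.19 ± 0.28, SE, adjusted p = 0.00208). In group 1 the log2 FC was 0.54 ± 0.32 (SE) with an adjusted p of 0.192. With the score in the fit, STARD4 in group 2 had a log2 FC of 0.46 (adjusted p = 0.431). STARD3, a tether between endosomes and other membranes, was lower in PPGLs (log2 FC -0.41 ± 0.16, SE, adjusted p = 0.0432), a call lost without NAM replicates 2, 3, 4, 5 or 10, group 1 replicates 3, 5, 6 or 7 or group 2 replicates 1, 4, 5, 6, 8, 11 or 12 (adjusted p up to 0.117).

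Of the efflux genes, ABCA1, which loads cholesterol onto lipid-poor apolipoprotein, was at 155 to 711 CPM among NAMs, with PPGLs at 50.8 to 396 CPM, where 17 of 19 tumors lay below every NAM (log2 FC -1.67 ± 0.25, SE, adjusted p = 1.42e-05). Group 2 replicate 11 was the highest tumor. NR1H3, the oxysterol receptor LXR alpha that switches on ABCA1, was at 46.4 to 163 CPM among NAMs, with PPGLs at 13.3 to 109 CPM (log2 FC -1.68 ± 0.28, SE, adjusted p = 3.90e-05), with the same tumor highest. ABCG1, another exporter, had a log2 FC of 0.24 ± 0.29 (SE, adjusted p = 0.531). ABCA1 and NR1H3 were lower in both groups, with log2 FC of -1.92 ± 0.35 and -2.25 ± 0.36 (SE) in group 1 and -1.56 ± 0.29 and -1.44 ± 0.29 (SE) in group 2. Adjusted for the cortical score, ABCA1 had log2 FC of -3.35 (adjusted p = 0.101) in group 1 and -2.16 (adjusted p = 0.00306) in group 2. NR1H3 had -1.04 (adjusted p = 0.0614) in PPGLs and -1.53 (adjusted p = 0.454) in group 1.

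Among the sterol sensors, SREBF1, the SREBP gene best known for fatty acid synthesis, was at 119 to 377 CPM in NAMs, 26.4 to 84.2 CPM in group 1 and 34.2 to 117 CPM in group 2. Every tumor lay below every NAM (log2 FC -1.79 ± 0.21, SE, adjusted p = 4.26e-07). Adjusted for the score, log2 FC of SREBF1 were -0.30 (adjusted p = 0.875) in group 1 and -1.01 (adjusted p = 0.0319) in group 2. SREBF2, the SREBP gene that drives cholesterol synthesis, was at 90.6 to 200.4 CPM among NAMs, with PPGLs at 27.7 to 236 CPM, with a log2 FC of -0.07 ± 0.22 (SE, adjusted p = 0.829). SCAP, their escort, was lower in PPGLs (log2 FC -1.05 ± 0.16, SE, adjusted p = 1.29e-05), with 18 of 19 tumors below every NAM. With the score in the fit, that of SCAP in group 1 was -0.14 (adjusted p = 0.938). INSIG1 spread widely, at 16.7 to 337 CPM among NAMs, with PPGLs at 9.29 to 111 CPM, and was lower in PPGLs (log2 FC -1.60 ± 0.42, SE, adjusted p = 0.00336) although 5 of 19 tumors lay below every NAM. In group 1 the INSIG1 call (adjusted p = 0.0252) was lost without NAM replicate 8 or group 1 replicate 1, with adjusted p up to 0.0669. With the cortical score in the fit its log2 FC there turned to 1.21 (adjusted p = 0.752), and in group 2 it was -0.59 (adjusted p = 0.603).

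The synthesis enzymes, on 17 rows, include steps from the first condensation of acetyl-CoA to the late sterol intermediates. In PPGLs, 3 rows (17.6%) were higher and 4 (23.5%) lower, near the 22.3% and 15.2% of all genes, with a median log2 FC of 0.23 beside 0.13. In group 1, 6 (35.3%) were higher and 0 lower by edgeR, 0 lower also at an unadjusted p under 0.05 and by the DESeq2 Wald test, beside 21.0% and 14.1% of all genes, with a median of 0.29 beside 0.13. In group 2, 2 (11.8%) were higher and 4 (23.5%) lower, beside 18.4% and 14.5%, with a median of 0.08 beside 0.09. SQLE (chromosome 13, 22993862 to 23017978), the squalene epoxidase and a rate-limiting step, ran from a lowest of 14.7 over a median of 21.2 to a highest of 50.1 CPM in NAMs. Its lowest, median and highest levels were 39.03, 98.6 and 152 CPM in group 1 and 14.2, 53.1 and 249 CPM in group 2. The ranges overlapped, with 4 of 7 and 6 of 12 tumors above every NAM, and SQLE was 2.98-fold higher in PPGLs (log2 FC 1.57 ± 0.35, SE, adjusted p = 0.000914). It was higher in group 1 (log2 FC 1.70 ± 0.41, SE, adjusted p = 0.00209) and in group 2 (log2 FC 1.49 ± 0.37, SE, adjusted p = 0.00321). HSD17B7 (chromosome 38, 19977086 to 19999010), a sterol ketone reductase, had a lowest, median and highest level of 19.2, 21.7 and 23.96 CPM in NAMs, 23.2, 44.6 and 62.6 CPM in group 1 and 19.9, 32.96 and 62.97 CPM in group 2. The NAMs were close together, and 16 of 19 tumors lay above every NAM (log2 FC 0.85 ± 0.16, SE, adjusted p = 0.000176), with log2 FC of 1.06 ± 0.19 (SE) in group 1 and 0.71 ± 0.17 (SE) in group 2. Adjusted for the cortical score, its log2 FC in group 1 was 1.78 (adjusted p = 0.123).

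NSDHL (chromosome X, 120720183 to 120754143), which removes a methyl group from the sterol ring, had a lowest, median and highest level of 16.7, 22.4 and 34.2 CPM in NAMs, 38.5, 44.9 and 61.1 CPM in group 1 and 16.96, 29.9 and 44.97 CPM in group 2. All 7 tumors of group 1 and 3 of 12 of group 2 lay above every NAM (log2 FC 0.90 ± 0.17, SE, adjusted p = 0.000185 in group 1). LSS (chromosome 31, 39480581 to 39503042), which closes the sterol ring, had 4.25, 7.16 and 11.7 CPM in NAMs, 4.60, 13.7 and 54.6 CPM in group 1 and 2.24, 7.98 and 25.5 CPM in group 2. Group 1 replicate 3 was the highest tumor, the groups overlapped, and the higher level of LSS in group 1 (log2 FC 1.30 ± 0.43, SE, adjusted p = 0.02) was lost without it (adjusted p = 0.16). Without replicates 3 and 5 the log2 FC was 0.36, and with the cortical score in the fit 3.32 (adjusted p = 0.187). FDPS (chromosome 7, 42241107 to 42250225), the farnesyl diphosphate synthase, had 67.7, 87.9 and 102 CPM in NAMs, 91.4, 147 and 195 CPM in group 1 and 63.8, 86.5 and 156 CPM in group 2. In group 1, 6 of 7 tumors lay above every NAM (log2 FC 0.77 ± 0.17, SE, adjusted p = 0.000703), and with the score in the fit the log2 FC was 1.41 (adjusted p = 0.128). ACAT2 (chromosome 1, 49011706 to 49029327), a cytosolic thiolase at the head of the pathway, had 55.1, 62.2 and 78.5 CPM in NAMs, 49.1, 90.98 and 157 CPM in group 1 and 40.4, 53.2 and 90.5 CPM in group 2. In group 1, 5 of 7 tumors lay above every NAM and 2 below (log2 FC 0.65 ± 0.19, SE, adjusted p = 0.00929). The ACAT2 call in group 1 was lost without group 1 replicates 3 and 5.

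The lower enzymes were called in PPGLs and group 2. These were MVK, the mevalonate kinase (log2 FC -0.66 ± 0.21, SE, adjusted p = 0.016), MVD, which makes isopentenyl diphosphate (log2 FC -0.59 ± 0.18, SE, adjusted p = 0.012), TM7SF2, a sterol reductase (log2 FC -0.83 ± 0.26, SE, adjusted p = 0.013) and SC5D, a sterol desaturase (log2 FC -0.45 ± 0.17, SE, adjusted p = 0.0356). Of the 12 tumors of group 2, 9 for MVK, 10 for MVD, 9 for TM7SF2 and 6 for SC5D lay below every NAM. The MVK call in PPGLs was lost without NAM replicate 3 (adjusted p = 0.059), and that of SC5D without NAM replicates 3, 6, 7, 8 or 10 (up to 0.0989). In group 2 the SC5D call was lost without NAM replicate 8 (adjusted p = 0.0609). HMGCS1, which makes HMG-CoA, was at 27.97 to 110.3 CPM among NAMs, with PPGLs at 24.6 to 259 CPM, with group 1 replicate 3 and group 2 replicate 11 highest, and had a log2 FC of 0.34 ± 0.37 (SE, adjusted p = 0.487). For PMVK, FDFT1, CYP51A1, DHCR7 and the row of MSMO1 on chromosome 15, log2 FC in PPGLs were 0.28 ± 0.19, 0.18 ± 0.22, -0.19 ± 0.23, -0.13 ± 0.27 and -0.08 ± 0.33 (SE), with adjusted p of 0.235, 0.556, 0.56, 0.74 and 0.873. The other row of MSMO1, on chromosome X, held at most 2.85 CPM. Both carry the same name, so the level of MSMO1 is uncertain.

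The summed level of the enzymes was 556 to 1018 CPM in NAMs, 640.1 to 1479.7 CPM in group 1 and 479 to 1134 CPM in group 2. Group 1 replicate 3 was the highest tumor for 6 of the 17 rows (ACAT2, HMGCS1, FDFT1, LSS, TM7SF2 and NSDHL) and group 2 replicate 11 for 3 (MVD, SQLE and CYP51A1). Exons of ACAT2, MVK, FDPS, TM7SF2, MSMO1 on chromosome 15, SREBF2 and SCAP overlap those of other genes, and whether strand was used in counting was not given in the sources used here, so that these levels can hold reads of their neighbors or miss shared ones.

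Between the tumor groups a gene was called at an adjusted p below 0.1. In group 1, 4 rows were lower and 3 higher than in group 2, beside 2.95% and 3.97% of 14666 genes. The lower genes were SCARB1, SOAT1, APOC1 and APOB, all of uptake, storage or lipoproteins, and the higher were the synthesis enzymes ACAT2, FDPS and NSDHL. The median log2 FC of the rows was -0.12, beside 0.04 over all genes. From the levels given above, APOC1 was lower in group 1 (log2 FC -4.02 ± 0.69, SE, adjusted p = 0.00575), with an overlap of the highest tumor of group 1, replicate 3, and the lowest of group 2, replicate 7. SCARB1 (log2 FC -3.13 ± 0.71, SE, adjusted p = 0.0239) overlapped in that replicates 3 and 7 of group 2 lay below the highest tumor of group 1. APOB (log2 FC -2.32 ± 0.60, SE, adjusted p = 0.0403) overlapped in the same way, with replicates 3, 5 and 7 of group 2 below the highest of group 1. Without group 2 replicate 10 the log2 FC of SCARB1 was -2.45, and without group 1 replicate 3 that of APOC1 was -4.62. With the sample number as block, log2 FC were -2.09 for SCARB1 and -1.64 for APOB, and 0 rows were called, where 0.320% of all genes were. SOAT1 did not overlap, its highest tumor in group 1 lying below the lowest in group 2 (log2 FC -2.10 ± 0.42, SE, adjusted p = 0.0127). With the cortical score in the fit, none of these 4 genes was called, and log2 FC were -0.03 (adjusted p = 0.994) for SOAT1 and -1.33 (adjusted p = 0.693) for APOC1. The signs of SCARB1 and APOB turned, at 1.49 (adjusted p = 0.656) and 1.38 (adjusted p = 0.645). ACAT2 (log2 FC 0.75 ± 0.22, SE, adjusted p = 0.0644), FDPS (log2 FC 0.65 ± 0.19, SE, adjusted p = 0.0589) and NSDHL (log2 FC 0.65 ± 0.17, SE, adjusted p = 0.0412) were higher in group 1. For NSDHL the groups met at group 2 replicate 10 alone, and for ACAT2 and FDPS they overlapped more widely. The ACAT2 call was lost without group 1 replicates 3 or 4 (adjusted p up to 0.138) and that of FDPS without group 1 replicate 4 (adjusted p = 0.113).

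Without group 1 replicates 3 and 5, 4 rows were lower and 0 higher between the tumor groups by edgeR, where 3 were higher at an unadjusted p under 0.05 and 7.29% of all genes were called. No other tool was run without these tumors. With all tumors, the DESeq2 Wald test called 3 higher and 5 lower, with 12.2% of all genes called in either direction. The Mann-Whitney U-test called 1 and 3, with 2.63% of all genes. When the cortical score entered the fit, 0 rows were called in either direction by edgeR, with 7 higher and 2 lower at an unadjusted p under 0.05, and 0 of all genes were called. MVK, MVD, TM7SF2, SC5D, NPC2 and STARD4 passed against NAM in group 2 and not in group 1, and none of them passed between the groups, so no difference between the groups was shown for these genes.

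Within groups, the level of each row was set against the cortical score, on log2 CPM, in a family of 105 relations with p adjusted over all of them. In group 2 (n = 12) 4 rows were positively related to the score and 0 negatively, and 7 of 35 had an unadjusted permutation p under 0.05. SCARB1 followed the score most closely (r = 0.969, permutation p = 1.00e-05, adjusted p = 0.00105, rho = 0.972, permutation p = 1.00e-05, adjusted p = 0.00105), the unadjusted p being the smallest that the permutations can give. APOB (r = 0.908, permutation p = 3.00e-05, adjusted p = 0.00157, rho = 0.916, permutation p = 0.0001, adjusted p = 0.00525) did so as well. Without replicates 7 and 10, farthest from the median score, r was 0.937 for SCARB1 and 0.855 for APOB, and both still passed. SOAT1 (r = 0.827, permutation p = 0.00074, adjusted p = 0.0109, rho = 0.839, permutation p = 0.00128, adjusted p = 0.0266) and APOC1 (r = 0.793, permutation p = 0.00239, adjusted p = 0.0238, rho = 0.748, permutation p = 0.00735, adjusted p = 0.0702) had r of 0.685 and 0.583 without these tumors, with unadjusted permutation p of 0.0265 and 0.0758 over 10 tumors, and no longer passed the adjusted threshold. SCAP, which did not pass with all 12 tumors, passed without these (r = 0.856). By rho, 4 rows passed as well, with SC5D (r = 0.572, permutation p = 0.0527, adjusted p = 0.214, rho = 0.811, permutation p = 0.00215, adjusted p = 0.0322; r = 0.412 without both tumors) in place of APOC1.

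In NAMs (n = 10) 7 rows were positively related to the score (SCAP, SCARB1, SOAT1, NPC1, NR1H3, APOC1 and APOB) and ABCG1 negatively, and none passed without replicates 4 and 5. The closest was NPC1 (r = 0.939, permutation p = 6.00e-05, adjusted p = 0.0021, rho = 0.891, permutation p = 0.00096, adjusted p = 0.0252; r = 0.920 without them). Over the 8 samples left, r was 0.732 for SCAP, 0.771 for SCARB1, 0.830 for SOAT1 and 0.828 for NR1H3. It was 0.672 for APOC1, 0.726 for APOB and -0.774 for ABCG1. In group 1 (n = 7) LPL was negatively related to the score by an exact permutation test (r = -0.998, permutation p = 0.000397, adjusted p = 0.00694, rho = -0.964, permutation p = 0.00278, adjusted p = 0.0365) and LIPE positively (r = 0.920, permutation p = 0.00397, adjusted p = 0.0342, rho = 0.857, permutation p = 0.0238, adjusted p = 0.147), but leaving out the farthest samples left 5, too few for a value. What part cortical cells had in the differences between groups was not tested. The covariate can hardly be told apart from the group, and not at all in group 1 against NAM.

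**Figure D3:**
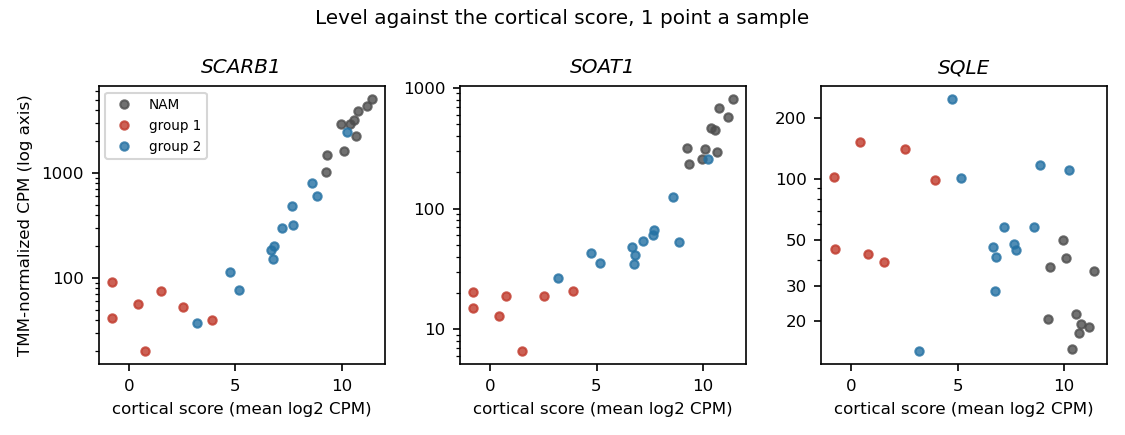
Level of SCARB1, SOAT1 and SQLE, as TMM-normalized CPM on a log axis, against the cortical score (mean log2 CPM of 9 markers) in each sample, for NAM (gray), PPGL group 1 (red) and PPGL group 2 (blue). In group 2, SCARB1 is highest in replicate 10, the tumor with the highest score.

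Other cell types were read from lists of their markers. Of 10 macrophage markers 9 were found, with sums of 441 to 1500.1 CPM in NAMs, 239 to 1276 in group 1 and 176 to 2489 in group 2, none at 0. Replicates 9 and 11 of group 2 were highest, at 2489 and 2073 CPM, and both were also the highest tumors for APOE. Group 1 replicates 2 and 5, with sums of 830 and 873 CPM, had the lowest APOE of the tumors, at 7.49 and 31.5 CPM. C1QC was the most abundant, with 254 ± 91.4 CPM in NAMs and 208 ± 178 CPM in PPGLs (SD). Of the 9 macrophage markers, 2 were lower and 0 higher in PPGLs, beside 15.2% and 22.3% of all genes. Of 8 adipocyte markers 6 were found, with sums of 9.82 to 50.9 CPM among NAMs, against 0.560 to 91.1 CPM among PPGLs, PLIN4 being the most abundant in NAMs. The highest tumor, group 2 replicate 6, was also the highest for LPL, and LEP was at 0 in 10 samples and FABP4 in 5. Group 1 replicate 7, with the lowest adipocyte sum, however had LPL at 43.0 CPM. Group 1 replicates 4 and 5, with adipocyte sums of 48.1 and 3.71 CPM, had LPL at 6.89 and 39.3 CPM. Of 10 hepatocyte markers 9 were found, with sums of 9.37 to 527 CPM among NAMs, against 5.47 to 708 CPM among PPGLs. On average FGG was the most abundant in NAMs and SERPINA1 in PPGLs. FGG was at 0.452 to 518 CPM in NAMs and at 0 to 0.115 CPM in group 1. Of 4 tested, 2 were lower and 2 higher in PPGLs, beside 15.2% and 22.3% of all genes. In group 1, 2 were lower and 0 higher, beside 14.1% and 21.0%, and in group 2, 2 and 2, beside 14.5% and 18.4%. FGA was at 0 in 26 samples, AHSG in 25 and TTR in 24, and ALB was not found by name. The part of these cell types in the differences was not tested.

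All 8 endothelial markers were found, with sums of 363 to 872 CPM among NAMs, against 192 to 801 CPM among PPGLs. VWF was the most abundant in NAMs, and 3 of 8 were lower and 0 higher in PPGLs, beside 15.2% and 22.3% of all genes. Of 10 proliferation genes 9 were found, most abundant in NAMs being AURKB, with sums of 18.6 to 79.7 CPM in NAMs, 27.7 to 1327 CPM in group 1 and 38.3 to 172 CPM in group 2. Of these 8 of 9 were higher in PPGLs, beside 22.3% of all genes. Between the tumor groups 7 of 9 were higher in group 1, beside 3.97% of all genes, with group 1 replicate 7 highest.

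Of 33 other genes of sterol handling, 30 were found and 28 tested. In PPGLs, 10 were lower and 1 higher, beside 15.2% and 22.3% of all genes, with a median log2 FC of -0.33 beside 0.13 over all genes. The log2 FC of the 28 ran from -2.16 to 2.89. Among the 10 lower genes was LIPA, the lysosomal lipase, given as 1 example (log2 FC -1.78 ± 0.21, SE, adjusted p = 4.40e-07). VLDLR, a lipoprotein receptor, was higher (log2 FC 2.89 ± 0.47, SE, adjusted p = 3.05e-05). In group 1, 10 were lower and 1 higher, beside 14.1% and 21.0% of all genes. In group 2, 8 were lower and 2 higher, beside 14.5% and 18.4%. Between the tumor groups, 1 of the 28 was lower and 0 higher in group 1, beside 2.95% and 3.97% of all genes, so the share lower was near that of all genes. The lower was PLIN2, a coat protein of lipid droplets (log2 FC -0.81 ± 0.26, SE, adjusted p = 0.0874). Of 8 fatty acid synthesis genes, 2 were lower and 1 higher in PPGLs, beside 15.2% and 22.3% of all genes, and 5 were not called. The higher was the desaturase FADS1 (log2 FC 1.80 ± 0.40, SE, adjusted p = 0.000827). The lower were SCD (log2 FC -1.25 ± 0.24, SE, adjusted p = 0.000214) and the elongase ELOVL5 (log2 FC -0.72 ± 0.14, SE, adjusted p = 0.000176).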

How the data were processed

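Raw exon counts per gene, deposited by the authors, were used as they stand. The labels name FastQC, STAR, HTSeq and Picard as the tools used before. Counts were analyzed in R 4.3.3 with edgeR 4.0.16 (filterByExpr with a minimum count of 10 and total of 15, TMM, quasi-likelihood F test, 2-sided), with limma 3.58.1, and p was adjusted over all genes tested (Benjamini-Hochberg). PPGL against NAM and group 1 against group 2 had fits of their own, and each group against NAM came from 1 fit with 3 groups. Genes were called at an adjusted p below 0.05, or 0.1 between tumor groups. Log2 CPM for the scores used a prior count of 2. Correlations used 100000 permutations, or exact enumeration in group 1 (Python 3.11.15, numpy 2.4.6, scipy 1.17.1; figures with matplotlib 3.10.9). The code was tested on simulated data. All members found are named, by role, and the 3 called members with the largest log2 FC in each direction are given in full. The members and the lists (adrenal cortex, chromaffin, macrophage, adipocyte, hepatocyte, endothelium, proliferation, other sterol genes, fatty acid synthesis) were chosen with earlier results of these data known. Alternatives were DESeq2 1.42.0 size factors and Wald test, library size only, no filter, a filter of 1 CPM, the sample number as replicate block, the cortical score as covariate, the Mann-Whitney U-test, a fit with 3 groups and leaving out each sample. Leaving out the tumors low in TH and DDC, or the tumor with the highest cortical score, was chosen after seeing the data. No sample was left out of the results otherwise.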

Additional observations from a re-analysis of the deposited data

Results flagged for a closer look

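Of 70 pairs of a member and a group of up to 10 samples, 2 had a sample far from the others, where about 1 in 20 groups is marked by chance. SC5D in group 1 replicate 7 was at 11.2605 CPM, the nearest tumor of its group being at 22.6 CPM. SOAT1 in group 1 replicate 2 was at 6.55958 CPM, the nearest being at 13.0 CPM. The cause was not tested.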

How the results depend on the processing

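With the sample number as replicate block, 3 members were higher in PPGLs against NAMs, and 0 were higher and 0 lower between the groups by edgeR (4 and 7 at an unadjusted p under 0.05). No other tool was run with the block, and the DESeq2 Wald test without it called 3 and 5. The numbers do not pair dogs, and the cause was not tested. With the cortical score as covariate, 3 were higher and 9 lower in PPGLs, 0 and 0 in group 1 against NAM, 1 and 5 in group 2 against NAM, and 0 and 0 between groups. Directions reversed there, none passing, for SCARB1 (log2 FC 1.49) and APOB (1.38) between groups, and INSIG1 (1.21), SCARB1 (0.57) and LIPE (0.16) in group 1 against NAM. Between groups the Mann-Whitney U-test called 1 higher, and 0 were higher without the tumors low in TH and DDC, chosen after seeing the data. Leaving out 1 sample gave 1 to 4 higher between groups, the fewest without group 1 replicate 4, and 4 lower each time. In NAMs 4 members were positively and 0 negatively related to the score by rho, and 0 and 0 without the 2 farthest samples; in group 1, 0 were positive by rho. Scaling by library size shifted the median log2 FC of all genes in group 1 against NAM by 0.11. Leaving out 1 sample gave 5 to 6 higher and 14 to 17 lower in PPGLs, 5 to 7 and 10 to 13 in group 1 against NAM, and 4 and 14 to 16 in group 2 against NAM. Of the members not called, 7 of 13 in PPGLs, 11 of 28 between groups, 10 of 16 in group 1 and 8 of 16 in group 2 changed sign in some alternative. The NAMs and the tumors differ in the origin of the dogs and in cortical RNA, and a p that missed the threshold does not show that levels were equal.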

Other observations

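STAR, which carries cholesterol into mitochondria for steroid synthesis, was at 1130.2 and 836 CPM in group 1 replicates 1 and 2, and at 16.6 to 125 CPM in the other tumors of that group. In those 2 tumors CYP17A1 was at 1.88 and 5.86 CPM and CYP11A1 at 0.613 and 2.47 CPM, both enzymes of steroid synthesis. These genes were singled out after their values were seen.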
